A study of Mus musculus with 6 samples.

Results

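The genes described here are the nuclear genes for complexes II to V of the mitochondrial respiratory chain, with the mobile carrier cytochrome c. They were chosen by symbol, as Sdha to Sdhd, every Uqcr, Cox4 to Cox8 and Atp5 gene, Cyc1 and Cycs, without symbols that end in -ps, and with at least 10 counts in 3 or more of the libraries. Of the 31169 genes in the table, 48 had such a symbol and 44 of them also met the count minimum: 4 of complex II, 8 of complex III, cytochrome c, 14 of complex IV and 17 of the ATP synthase (complex V). Poly(A) RNA of whole, intact retina was sequenced from C57BL/6 mice of the microbead occlusion model, in which beads block the drainage of the eye and raise intraocular pressure. At 1 month of age, mice received an intracameral injection of 1 μL of saline (3 libraries) or of 15 μm polystyrene microbeads (3 libraries), and retinas were collected 4 weeks later, at 2 months of age. The saline injection was the control, so that every mouse of the comparison carried an injection, and no gene was modified. The sources used here do not say whether each library came from 1 mouse, so that the p-values measure the spread between these libraries.

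Complexes II, III and IV hand electrons from succinate, ubiquinol and reduced cytochrome c along the inner mitochondrial membrane to oxygen. Complexes III and IV pump protons as they do so, and the ATP synthase lets the protons return and makes ATP from ADP and phosphate. Complex II is encoded by nuclear genes alone, whereas cytochrome b of complex III, the catalytic core of complex IV and part of the proton channel of the ATP synthase are encoded by the mitochondrial genome. Complexes III, IV and V thus join subunits of both genomes in fixed proportions. The retina, and its photoreceptor inner segments above all, is among the most oxygen-demanding tissues.

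Totals per library ran from 36085737 to 46481382 counts in saline and from 13574949 to 19834366 counts in microbead retinas. Genes of the mitochondrial genome took 3.19 to 3.57% of the counts in saline and 8.90 to 10.6% in microbead libraries. The libraries of each group also carry their own series of names, so that depth, mitochondrial share, naming series and injection cannot be told apart. The 16 rod markers were all detected, with a summed level of 81467 to 106952 counts per 1000000 (CPM) in saline and 70250 to 85864 CPM in microbead retinas. In whole retina, fewer cells of a type and less RNA per cell cannot be told apart.

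With edgeR's quasi-likelihood test, 5 of the 44 genes had an adjusted p-value under 0.05 as compared to saline, where 12.8% of the 17707 genes tested did. Uqcrb, Atp5sl and Cox7a2l were higher in microbead retinas and Atp5e and Uqcrfs1 were lower. The 3 higher calls are 6.82% of the members, against 6.46% of all genes tested, and the 2 lower calls are 4.55%, against 6.31%. In this fit, the shares of the members called were thus near those of all genes. Saline and microbead libraries did not overlap for 17 members, 6 higher and 11 lower, which is 38.6% of them against 37.8% of all genes tested. An unadjusted p-value under 0.05 was found for 16 members, against 31.4% of all genes. The median log2 fold change of the members was 0.02 and that of all genes tested was -0.03. Single members lay between -1.17 and 1.38, with 23 above 0 and 21 below.

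These calls rested on few libraries. Without saline replicate 2 or microbead replicate 3, edgeR called 0 members, when 1.68% and 0.238% of all genes were called, and 13 and 11 members had an unadjusted p under 0.05. Without microbead replicate 2 (4.01% of all genes called), Uqcrb and Atp5sl were the members called. Without saline replicate 1 (15.1%) Cox7a2l was lost, and without saline replicate 3 (8.42%) Uqcrfs1. Without microbead replicate 1 (3.89%) Cox7a2l was lost and Atp5j2 was called lower. Over these 6 fits the adjusted p ran from 0.0164 to 0.0548 for Uqcrb, 0.0136 to 0.0700 for Atp5sl, 0.0427 to 0.168 for Cox7a2l, 0.0208 to 0.102 for Atp5e and 0.0246 to 0.134 for Uqcrfs1. No log2 fold change of the 5 genes changed sign. DESeq2 called 12 members, 4 higher and 8 lower, when it called 20.2% of all genes, 10.6% higher and 9.6% lower. Without a filter on low counts, edgeR called 13 members, 4 higher and 9 lower, as compared to 11.9% of all genes, 4.85% higher and 7.09% lower. Both sets held all 5 genes, and both added Atp5b, Sdha, Uqcrq, Cyc1, Cox5a and Cox4i1, all lower. In these 2 fits the members called, and those called lower, were a larger share than among all genes. The fit without a filter tested 31169 genes, with those of low counts among them.

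**Figure D1:**
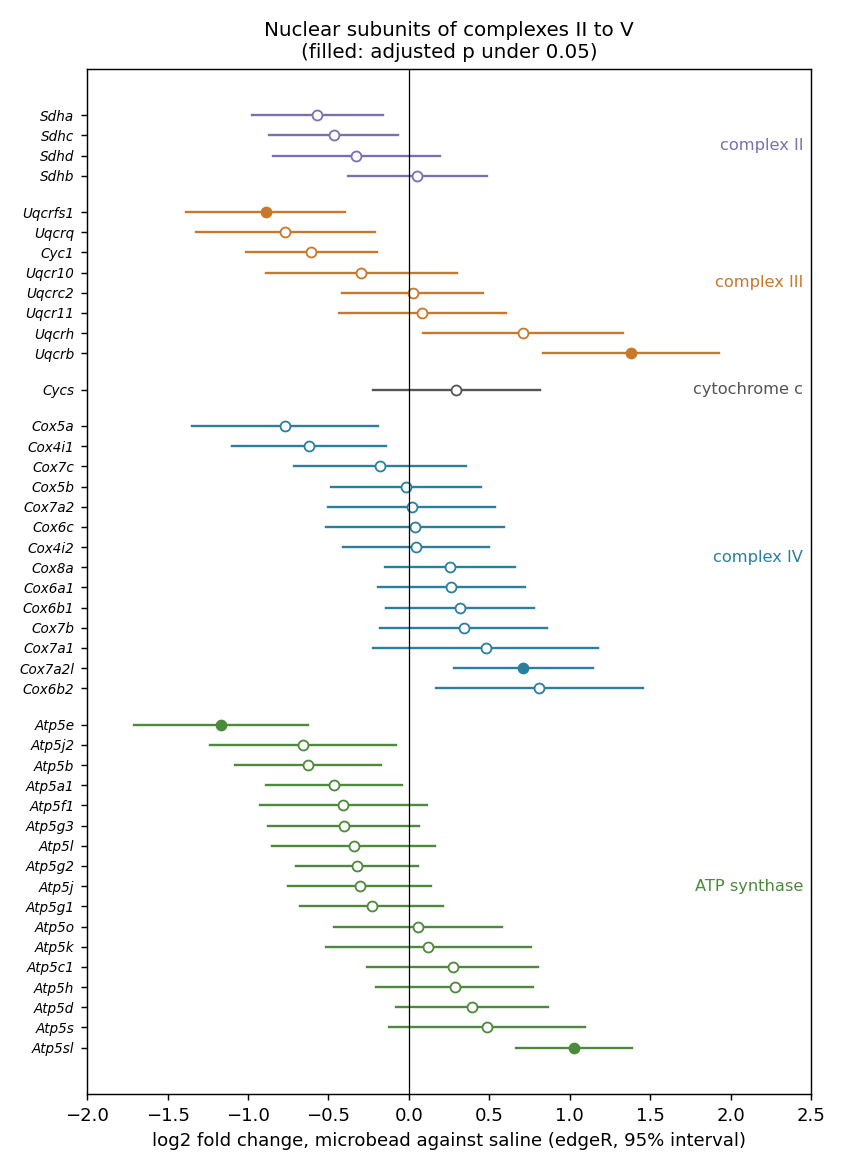
Log2 fold change (x axis) of each of the 44 members (y axis), microbead against saline, with 95% intervals from edgeR and n = 3 libraries per group, coloured by complex. The 5 filled points had an adjusted p under 0.05, and higher and lower members occur within complex III, complex IV and the ATP synthase.

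The promoters of the members past the threshold are shown because genes of opposite direction stand side by side within a complex. RefSeq (GRCm38.p6) held a promoter for 33 of the 44 members, and Uqcrb had no entry. Each stretch is printed 5′ to 3′ from 250 bases before the start up to the start or to the first annotated exon base, with motif letters in capitals. The stretch of Cox7a2l lies within the annotated gene, before an inner start.
Atp5sl, chr7:25619164-25619413, + strand: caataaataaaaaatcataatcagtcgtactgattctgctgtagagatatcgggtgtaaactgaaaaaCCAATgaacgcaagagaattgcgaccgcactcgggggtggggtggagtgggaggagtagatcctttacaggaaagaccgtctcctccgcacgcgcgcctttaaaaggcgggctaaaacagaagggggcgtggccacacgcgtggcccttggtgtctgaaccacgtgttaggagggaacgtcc
Cox7a2l, chr17:83514334-83514583, - strand: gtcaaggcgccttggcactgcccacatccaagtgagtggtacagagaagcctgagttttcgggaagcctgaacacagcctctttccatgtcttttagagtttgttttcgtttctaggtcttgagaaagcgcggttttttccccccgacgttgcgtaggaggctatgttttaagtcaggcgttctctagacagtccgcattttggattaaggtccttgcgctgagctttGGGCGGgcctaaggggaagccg
Atp5e, chr2:174464106-174464351, - strand: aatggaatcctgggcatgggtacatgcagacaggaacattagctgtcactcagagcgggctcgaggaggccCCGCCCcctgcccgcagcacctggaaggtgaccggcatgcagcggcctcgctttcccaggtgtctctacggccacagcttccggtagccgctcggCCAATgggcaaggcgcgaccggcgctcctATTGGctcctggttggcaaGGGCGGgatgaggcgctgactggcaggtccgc
Uqcrfs1, chr13:30545363-30545566, - strand: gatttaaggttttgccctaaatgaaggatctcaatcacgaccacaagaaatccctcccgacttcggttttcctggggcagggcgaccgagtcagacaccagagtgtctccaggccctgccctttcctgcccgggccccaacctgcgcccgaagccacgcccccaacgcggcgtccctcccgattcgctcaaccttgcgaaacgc
The motifs searched on both strands in the 250 bases before each start were the letters CGCATGCG of NRF1, CCGGAAGT of ETS factors, AAGATGGCG of YY1, GGGCGG of Sp1, and CCAAT, which NF-Y binds. The capitals mark, in Atp5sl, CCAAT at base -182. RefSeq holds another start of Atp5sl, before which the YY1 letters were found within annotated exon bases, which are not printed. In Cox7a2l they mark GGGCGG at base -22. In Atp5e they mark CCGCCC at -179, the reverse complement of the Sp1 letters, CCAAT at -84, its reverse complement ATTGG at -55, and GGGCGG at -36. The stretch of Uqcrfs1 held none of these letters. The 33 members had 37 promoters in the table, of which 56.8% held CCAAT, against 33.8% of all 32851 promoters. The NRF1 letters were found in 16.2% of the member promoters (Atp5g2, Atp5j, Atp5k, Atp5l, Cox6a1 and Cycs), against 1.55% of all promoters. The YY1 letters were found in 5.41% (Atp5j and Atp5sl), against 0.606%, the ETS letters in 8.11%, against 2.88%, and the Sp1 letters in 24.3%, against 32.7%. None of the 6 genes with the NRF1 letters was among the 5 past the threshold, of which Uqcrb could not be searched. With 11.4% of all members called, 6 genes are too few to read anything from this. These matches describe letters and are not binding sites.

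Complex II, succinate dehydrogenase, is the enzyme shared by the respiratory chain and the tricarboxylic acid cycle. None of its 4 genes passed the threshold with edgeR, while 2 had an unadjusted p under 0.05 and DESeq2 called Sdha lower. Their median log2 fold change was -0.40. Sdha (chromosome 13, 74322254 to 74350280, GRCm38), the flavoprotein that oxidises succinate, was at 395, 413 and 492 CPM in saline and 339, 274 and 262 CPM in microbead retinas. The groups did not overlap, with a log2 fold change of -0.57 and a standard error of 0.18 (edgeR, adjusted p = 0.0678). Sdhc, a membrane anchor that helps to bind ubiquinone, was at 113, 110 and 141 CPM in saline and 101, 78.7 and 83.9 CPM in microbead retinas. These values did not overlap either, with a log2 fold change of -0.47 and an adjusted p of 0.110 from edgeR. Sdhd, the other anchor, was at 55.3, 50.3 and 62.7 CPM in saline and 61.2, 37.2 and 35.7 CPM in microbead retinas. Sdhb, the iron-sulfur subunit that passes electrons from Sdha to ubiquinone, was at 49.8, 56.3 and 70.8 CPM in saline and 70.6, 53.4 and 59.5 CPM in microbead retinas. For both Sdhd and Sdhb the groups overlapped, and the fold changes were -0.33 and 0.05 on the log2 scale. The summed level of the 4 genes was 613, 630 and 766 CPM in saline and 572, 443 and 441 CPM in microbead retinas. It was the only one of the summed levels of complexes II, III, IV and the ATP synthase whose groups did not overlap (669 ± 83.8 CPM against 485 ± 74.9 CPM, SD, n = 3). Sdha made up most of this sum.

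Complex III, ubiquinol-cytochrome c reductase, held the largest rise and the second largest fall among the members. Uqcrb (chromosome 13, 66900617 to 66905378), a small supernumerary subunit next to the ubiquinone site, was at 68.3, 66.1 and 75.4 CPM in saline and 251, 168 and 128 CPM in microbead retinas. Every microbead library was above every saline library, and microbead replicate 1 was the highest. Uqcrb rose by 1.38 ± 0.24 on the log2 scale (± standard error, here and for the other genes; edgeR, adjusted p = 0.0149). Uqcrfs1, the Rieske iron-sulfur protein that takes electrons from ubiquinol, was at 80.9, 83.8 and 117 CPM in saline and 63.6, 44.0 and 44.2 CPM in microbead retinas. All microbead libraries were below all saline libraries, and Uqcrfs1 changed by -0.89 ± 0.22 on the log2 scale (edgeR, adjusted p = 0.0327). Cyc1, the cytochrome c1 that receives the electron from the Rieske protein, was at 118, 120 and 144 CPM in saline and 88.7, 68.8 and 93.4 CPM in microbead retinas. The groups of Cyc1 did not overlap, but its log2 fold change of -0.61 (standard error 0.18) had an adjusted p of 0.0575 from edgeR. Uqcrh, the hinge protein between cytochrome c1 and cytochrome c, had the highest mean CPM of the complex over the 6 libraries, though in saline alone Uqcrc2 (139 CPM) and Cyc1 were higher, with 127, 109 and 138 CPM in saline and 307, 149 and 156 CPM in microbead retinas. Its groups did not overlap, with 1 microbead library at more than 300 CPM, and the adjusted p was 0.116 from edgeR with a log2 fold change of 0.71. Uqcrq, another small subunit, had a log2 fold change of -0.77 without overlap, while Uqcr10, Uqcr11 and the core protein gene Uqcrc2 lay between -0.30 and 0.08 with overlapping groups. The median of the 8 genes was -0.14. Uqcrc1, which encodes the other core protein, was listed at 0 in 5 libraries and at 1 count in saline replicate 2. Since the partner Uqcrc2 was well detected and every cell with mitochondria makes both core proteins, nothing is read from this value, and its cause was not tested.

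Reads of Uqcrb may be shared with copies of the gene. Transcripts of other loci hold 34.8% of its stretches of 31 bases and 8.89% of those of 100 bases. Its antisense neighbour Gm10767 covers 5.71% of its exon bases. How the counting treated strand and reads with several matches is not given in the sources used here, so that Uqcrb is uncertain in this respect. Of the 100-base stretches of Cox7a2l, 7.77% are shared, and of those of Uqcrfs1, Atp5sl and Atp5e, 0%.

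Cytochrome c, encoded by Cycs, carries single electrons from complex III to complex IV and is also known for its release into the cytosol in apoptosis. It was at 33.0, 39.5 and 47.7 CPM in saline and 65.0, 42.5 and 39.9 CPM in microbead retinas. The groups overlapped, with a log2 fold change of 0.30 and an adjusted p of 0.418 from edgeR.

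In complex IV, cytochrome c oxidase, only Cox7a2l passed the threshold among 14 genes. Cox7a2l (chromosome 17, 83501918 to 83517330), also called SCAF1, joins complex III and complex IV into supercomplexes. It was at 112, 107 and 136 CPM in saline and 235, 179 and 167 CPM in microbead retinas. The groups did not overlap, and Cox7a2l rose by 0.71 ± 0.19 on the log2 scale (edgeR, adjusted p = 0.0418). This call was lost with an offset for GC content and length (adjusted p = 0.0987 from edgeR), with a replicate block (0.0790), and in all but 1 of the 6 fits that left out a library. Cox4i1, the common form of the regulatory subunit 4, had the highest mean CPM of the complex over the 6 libraries, though in microbead retinas alone Cox8a (223 CPM) and Cox7a2l were higher, at 259, 253 and 324 CPM in saline and 230, 143 and 169 CPM in microbead retinas. Its libraries also did not overlap, in the opposite direction, with a log2 fold change of -0.62 and an adjusted p of 0.0809 from edgeR. Cox5a, the partner of subunit 4 in the assembled enzyme, had a log2 fold change of -0.77 without overlap (adjusted p = 0.0766 from edgeR). The 8 other common subunits, from Cox7c to Cox7b, overlapped between groups and lay between -0.18 and 0.34.

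Among the members for tissue-type forms of complex IV subunits, Cox6b2 and Cox7a1 were measured at low levels and Cox4i2 was more abundant. Cox4i2, a form of subunit 4 known from lung and from hypoxia, was at 30.4, 28.4 and 33.8 CPM in saline and 40.2, 26.9 and 28.2 CPM in microbead retinas. Its own level overlapped between groups, but its share of the summed Cox4i1 and Cox4i2 level per kilobase did not. That share was 10.9, 10.5 and 9.82% in saline and 15.4, 16.4 and 14.9% in microbead retinas. Cox6b2, known from testis, was at 5.29, 5.04 and 4.56 CPM in saline and 9.47, 5.99 and 10.7 CPM in microbead retinas, without overlap (log2 fold change 0.81, adjusted p = 0.0881 from edgeR). Its share of Cox6b1 and Cox6b2 per kilobase overlapped, at 5.25, 5.47 and 3.67% in saline and 5.75, 5.24 and 8.63% in microbead retinas. Cox7a1, the heart and skeletal muscle form of subunit 7a, was at 2.74, 2.55 and 2.65 CPM in saline and 4.27, 3.39 and 3.38 CPM in microbead retinas. Its groups did not overlap, and its log2 fold change of 0.48 had an adjusted p of 0.328 from edgeR. Its share of Cox7a1 and Cox7a2 per kilobase was 5.86, 5.69 and 4.75% in saline and 6.35, 7.24 and 8.90% in microbead retinas, without overlap. Beside Cox7a1, the summed level of 16 skeletal muscle markers was 28.8 to 34.4 CPM in saline and 49.7 to 56.8 CPM in microbead retinas. Of these markers 10 were tested and Mylpf, a fast muscle myosin light chain, was called higher. Pvalb, which retinal neurons also express, made up the largest part of the sum, while the defining markers Ckm and Acta1 were at 0.601 to 2.25 CPM, and none of the 16 was at 0 in all libraries. Their part in the level of Cox7a1 was not tested. The muscle forms Cox8b and Cox6a2 and the testis form Cox7b2 were under the count minimum, with 1 to 19 counts per library for Cox8b and Cox6a2 and 0 to 6 for Cox7b2.

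The ATP synthase had both a rise and a fall past the threshold among its 17 genes. Atp5e (chromosome 2, 174461072 to 174464105), the small epsilon subunit of the central stalk, was at 71.4, 61.5 and 78.5 CPM in saline and 43.3, 24.3 and 26.2 CPM in microbead retinas. No microbead library reached a saline library, and Atp5e changed by -1.17 ± 0.24 on the log2 scale (edgeR, adjusted p = 0.0200). Atp5sl (chromosome 7, 25619414 to 25625551), named for its likeness to the coupling factor gene Atp5s and known as an assembly factor of complex I, was at 42.3, 43.0 and 40.5 CPM in saline and 86.4, 76.3 and 93.7 CPM in microbead retinas. Its saline libraries lay within a narrow range below all microbead libraries, and Atp5sl rose by 1.03 ± 0.16 on the log2 scale (edgeR, adjusted p = 0.0116). Without Atp5sl, Atp5s and Cox7a2l, which are not structural subunits of these complexes, 3 of 41 genes were called, 1 higher and 2 lower. This is 7.32% of them, against 12.8% of all genes tested. The share called higher was 2.44%, against 6.46%, and the share called lower 4.88%, against 6.31%.

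Atp5b, the catalytic beta subunit, had the highest level of all members, with 1160, 1254 and 1561 CPM in saline and 1027, 729 and 818 CPM in microbead retinas. The groups did not overlap, with a difference of -0.63 ± 0.20 on the log2 scale (edgeR, adjusted p = 0.0700). Of the 5 genes of the F1 head and central stalk, Atp5a1, Atp5b and Atp5e were lower without overlap, while Atp5c1 (log2 fold change 0.27) and Atp5d (0.39) overlapped. The 4 genes of the peripheral stalk, which holds the head still, lay between -0.41 and 0.29 and all overlapped. The 3 genes for subunit c, Atp5g1 to Atp5g3, encode the same mature protein, which forms the rotating ring. Atp5g3 was at 174, 169 and 214 CPM in saline and 177, 110 and 133 CPM in microbead retinas. Atp5g1 was at 68.0, 72.6 and 86.3 CPM and at 80.6, 56.8 and 55.7 CPM, and Atp5g2 at 46.8, 41.4 and 48.8 CPM and at 36.2, 32.6 and 40.5 CPM. Only Atp5g2 did not overlap (log2 fold change -0.32, adjusted p = 0.223 from edgeR), and 34.7% of its 100-base stretches are shared with other loci. Per kilobase of transcript, Atp5g3 made up 75.4 to 77.7% of the c-ring levels in saline and 72.9 to 78.6% in microbead retinas, and the 3 shares overlapped between groups. These shares rest on a transcript of 4715 bases for Atp5g1, as compared to 723 for Atp5g3 and 731 for Atp5g2, and by CPM alone Atp5g3 made up 59.6 to 61.3% in saline and 55.2 to 60.2% in microbead retinas. Over all 17 genes the median log2 fold change was -0.31, and the summed level of 3548 ± 541 CPM in saline and 2826 ± 553 CPM in microbead retinas overlapped.

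**Figure D2:**
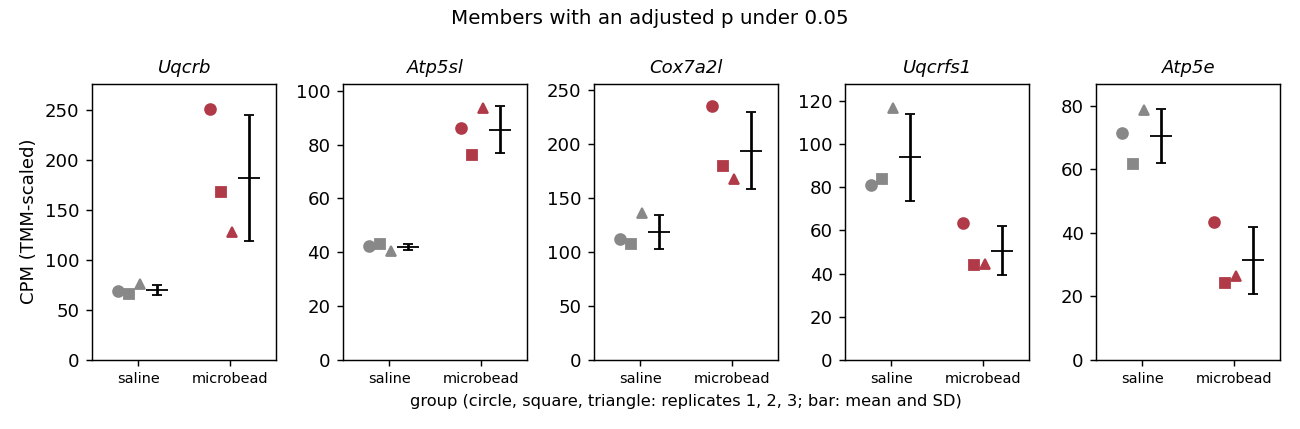
CPM on TMM-scaled library sizes (y axes, from 0) of the 5 members with an adjusted p under 0.05, in 3 saline and 3 microbead libraries (x axes). Symbols mark replicates 1 to 3 and bars the mean and SD, and no gene has overlapping groups.

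The members moved together between libraries of the same group. Within the saline group, saline replicate 3 had the highest value for 40 of the 44 members (90.9%), as compared to 39.8% of all genes tested. Within the microbead group, microbead replicate 1 was the highest for 39 (88.6%), as compared to 37.6% of all genes tested. The median deviation of the members from their mean over the saline libraries, in log2 CPM, was -0.08, -0.11 and 0.21 in saline replicates 1 to 3 and 0.30, -0.31 and -0.27 in microbead replicates 1 to 3. The same medians over all genes tested lay between -0.02 and 0.04. The libraries of 1 group thus differed more in these medians than the groups differed in the median fold change. Without microbead replicate 1 the median log2 fold change of the members was -0.28, in place of 0.02. Lens markers stood at 366 CPM in saline replicate 3 and at most 30.9 CPM elsewhere, and the summed Müller glia markers at 9635 CPM, as compared to 4811 to 6369 CPM in the others. The pigment epithelium markers Ttr and Rpe65 were at 116 and 28.4 CPM in saline replicate 3, as compared to 5.45 and 0.930 CPM in saline replicate 1 and 26.6 and 4.52 CPM in saline replicate 2. In the microbead libraries, Ttr was at 60.9 to 67.4 CPM and Rpe65 at 7.21 to 14.4 CPM. Lrat and Rlbp1 were also highest in saline replicate 3. The other listed markers of this tissue, Rdh5, Slc6a20a, Pmel, Tyrp1, Mlana and Best1, each had a higher value in a microbead library. Their part in the levels of the members was not tested. The summed level of all members was 5757, 5858 and 7398 CPM in saline and 6852, 4732 and 5086 CPM in microbead retinas, and it overlapped.

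**Figure D3:**
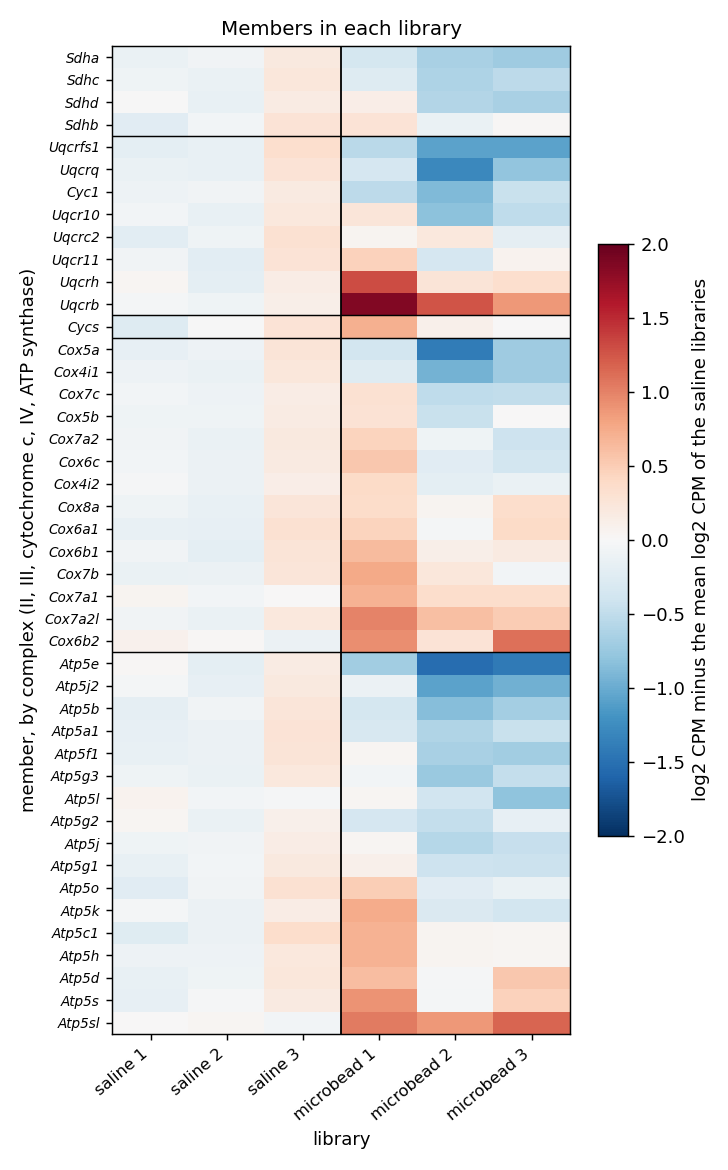
Log2 CPM of each member in each library less its mean over the saline libraries (colour scale from blue, lower, to red, higher), with members on the y axis by complex and libraries on the x axis. Saline replicate 3 and microbead replicate 1 are redder than their group for most members (40 and 39 of 44), while the rows of Uqcrb, Cox7a2l and Atp5sl are red and those of Uqcrfs1 and Atp5e blue in all 3 microbead libraries.

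Ratios between members of 1 library do not depend on how that library was scaled. The following 3 ratios were chosen after the values were seen and have no test. The ratio of Uqcrb to Uqcrfs1 was 0.845, 0.789 and 0.644 in saline and 3.95, 3.81 and 2.89 in microbead retinas. The ratio of Cox7a2l to Cox4i1 was 0.432, 0.424 and 0.421 in saline and 1.02, 1.25 and 0.994 in microbead retinas. The ratio of Atp5b to Atp5h, the catalytic and a peripheral stalk subunit of the same enzyme, was 8.13, 8.80 and 8.76 in saline and 4.15, 4.58 and 5.18 in microbead retinas. The saline and microbead values of each ratio did not overlap, and those of Cox7a2l to Cox4i1 in saline had a mean of 0.426 ± 0.00565 (SD, n = 3). Over all pairs of members, the ratio did not overlap between groups for 631 of 946 pairs (66.7%), as compared to 36.4% of the pairs of all genes tested and 38.4% of the pairs of genes that reached 10 counts in each library. Pairs share genes and are not independent of each other. Neither set of background pairs was matched to the members in count level, and the part of count level in this difference was not tested.

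**Figure D4:**
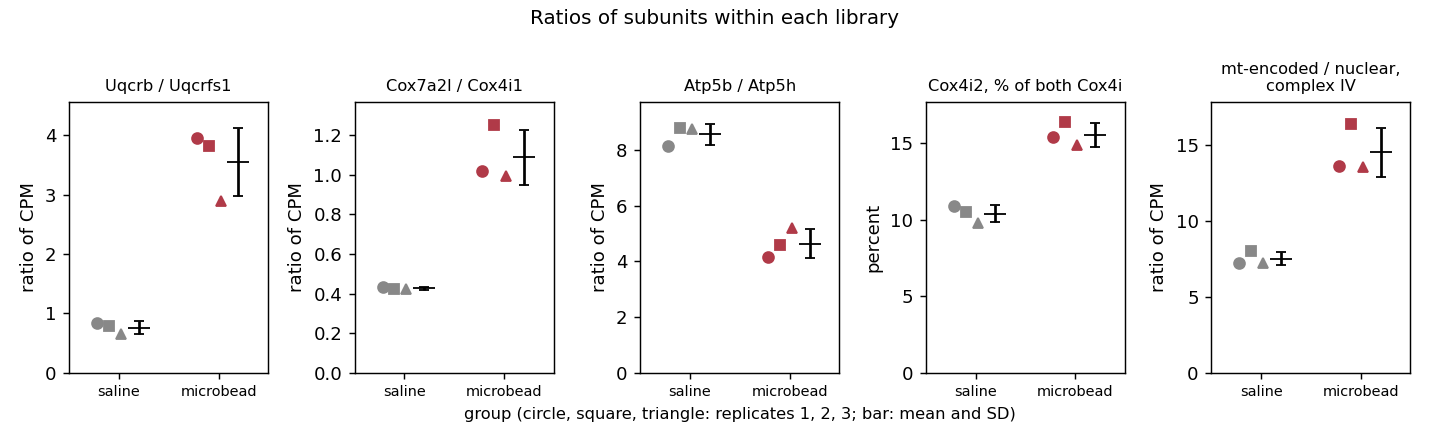
Ratios within each library (y axes, from 0) for 3 pairs of members, the share of Cox4i2 in the Cox4i1 and Cox4i2 level, and the ratio of mitochondrial to nuclear CPM of complex IV, in 3 saline and 3 microbead libraries (x axes). Symbols mark replicates 1 to 3 and bars the mean and SD, and the groups are apart in every panel, with Cox7a2l to Cox4i1 at 0.421 to 0.432 in saline and 0.994 to 1.25 in microbead retinas. The 3 pairs were chosen after their values were seen. Shares and sums that overlapped, such as the Cox6b2 share, are not drawn.

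The subunits of complexes III to V that the mitochondrial genome encodes all changed, in both directions. mt-Cytb, the cytochrome b of complex III, rose by 1.93 on the log2 scale and mt-Co1, the largest catalytic subunit of complex IV, by 1.01 (adjusted p = 0.00289 and 0.0188 from edgeR). mt-Co2, mt-Co3, mt-Atp6 and mt-Atp8 fell, with log2 fold changes of -2.36, -2.94, -2.97 and -2.76. These 4 were counted at 0.722 to 62.9 CPM, as compared to 8979 to 23477 CPM for mt-Co1, although mt-Co1 to mt-Co3 serve the same enzyme. The cause of this gap in level was not tested. The ratio of mitochondrial to nuclear CPM of complex IV, nearly all of it mt-Co1, was 7.27, 8.04 and 7.27 in saline and 13.7, 16.4 and 13.6 in microbead retinas. The ratio for complex III, with mt-Cytb as its mitochondrial gene, was 10.4, 10.5 and 9.20 in saline and 28.9, 35.3 and 44.2 in microbead retinas. The ratio for the ATP synthase went the other way, from 0.0109, 0.00811 and 0.0104 in saline to 0.00131, 0.00148 and 0.00209 in microbead retinas.

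Genes that work beside the members also moved in both directions. Of all genes tested, 6.46% were called higher and 6.31% lower. Of 35 tested nuclear subunits of complex I, the NADH dehydrogenase, 1 rose and 2 fell. Ndufa1 was the rise (log2 fold change 1.11) and Ndufc1 the larger fall (-1.26), and the median was -0.19. Of 10 assembly factors of complexes II and III, 2 rose and 2 fell, and the largest changes were those of Lyrm7, which helps to insert the Rieske protein (log2 fold change 1.12, adjusted p = 0.0178 from edgeR), and Sdhaf4, an assembly factor of Sdha (-1.06, adjusted p = 0.0323). Lyrm7 thus rose while the gene of its client Uqcrfs1 fell. Of 20 assembly factors of complex IV, 1 rose and 3 fell, with Pet100 at 1.31 and the copper chaperone Cox11 at -1.38. Of 6 factors of the ATP synthase, Atpif1, the inhibitor of its reverse reaction, rose (log2 fold change 0.89, adjusted p = 0.0231 from edgeR) and none fell, while Tmem70 was at -0.62 with overlapping groups.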

How the data were processed

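Poly(A) RNA of whole retina (RNA integrity above the study's minimum) was sequenced as stranded libraries in 3 saline and 3 microbead samples, grouped from the sample records. The authors aligned reads with STAR 2.5.3a to GRCm38.p5 with a GENCODE annotation, and deposited the raw count of each gene from featureCounts. Whether counting used strand or reads with several matches is not given in the sources used here. The deposited table also holds the authors' own comparison: mean normalized signal, log2 fold change, linear fold change, p-value, adjusted p-value and a call. These columns were not used.

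Low counts were removed with filterByExpr at a minimum of 10 (total 15), TMM scaling was applied, and groups were compared in edgeR 4.0.16 (R 4.3.3) by its two-sided quasi-likelihood test, adjusted by Benjamini-Hochberg over 17707 genes, at 0.05. CPM are counts per 1000000 of the scaled total. Ratios and sums have no test. Positions, transcripts and lengths came from GENCODE vM21 (GRCm38), and levels per kilobase used 1 principal transcript per gene. In the shallowest library, 3 counts equal 0.217 CPM. No library was a copy of another of its group: the chi-square per degree of freedom between them was 20.1 or more. Code was tested on simulated data.

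Members, gene lists and motifs were chosen with earlier results of these data known. Named with values in each library were members past the threshold (the 12 largest by absolute log2 fold change), the most abundant member of each complex, tissue-type isoforms and the 3 Atp5g genes, Cyc1, Cycs and the Sdh genes. The 2 largest changes of each pathway list were also named, with values in each library only for Slc25a3 and Vdac1. Other genes named were chosen after their values were seen. Alternatives were RLE and upper-quartile scaling, nuclear genes only, sizes without the 100 most abundant genes, 3 other filters, DESeq2 1.42.0, limma-voom (limma 3.58.1), a replicate block, a GC and length offset, thinning, an adjusted p under 0.01, each library left out, and, chosen after seeing the data, scaling on the members.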

Additional observations from a re-analysis of the deposited data

How the results depend on the processing

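The 5 calls among the members were the same genes under RLE, upper-quartile and nuclear-gene scaling, without the 100 most abundant genes in the sizes, with at least 10 counts in 3 or more libraries, with limma-voom and after thinning. With at least 10 counts in every library Cyc1 was added as lower. Lower calls numbered 9 without a filter and 8 with DESeq2, and 1 with the replicate block, with the block and the GC and length offset, and when scaled on the members. That last scaling, chosen after seeing the data, left 1 higher call (Uqcrb) and 1 lower (Atp5e), and called 1.19% of all genes. At an adjusted p under 0.01, 0 members were higher and 0 lower with edgeR. Leaving out each library gave 0 to 3 higher and 0 to 3 lower calls. For the pathway list genes, with 9 higher and 14 lower calls, higher calls were 18 with DESeq2, 4 with the replicate block, 3 with the offset, 3 with block and offset, 3 when scaled on the members and 1 at 0.01. Their lower calls were 8, 7, 5 and 3 with the block, block and offset, scaling on the members and 0.01, and leaving out each library gave 1 to 9 higher and 3 to 18 lower calls. With the main settings, 2 of the higher and 4 of the lower calls were mitochondrial genome genes. The share of all genes called higher was then 6.46%, with DESeq2 10.6%, with the block 2.71% and with the offset 7.18%. It was 3.35% with block and offset and 0.712% when scaled on the members. The share called lower was 6.31% with the main settings, 2.4% with the block, 2.42% with block and offset and 0.48% when scaled on the members.

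The replicate numbers share only accession order: deviations of same-numbered samples correlated at -0.035, 0.136 and 0.010, so the numbers were not taken as pairs. With the replicate block Atp5sl, Uqcrb and Atp5e were called, and Cox7a2l (adjusted p = 0.0790 from edgeR) and Uqcrfs1 (0.0667) were not. Small values turned in sign: Sdhb was at -0.12 with the offset and -0.10 with block and offset, Cox4i2 was at -0.0086 without a filter, -0.018 with the offset and -0.034 with both, and Uqcrc2 was at -0.029, -0.19 and -0.15 under the same 3 settings. Leaving out a library gave -0.068 to 0.20 for Sdhb, -0.17 to 0.17 for Cox4i2 and -0.084 to 0.19 for Uqcrc2, and a median over the members of -0.28 (without microbead replicate 1) to 0.12, against 0.02 with all. The cause was not tested. Each group has 3 libraries, and the members named had at least 47 counts in each. Depth differed between the groups, and its part in the differences cannot be told apart from the injection.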

Other observations

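Of 6 tested carriers and channels for ADP, ATP and phosphate, 2 were called, both lower, when 6.31% of all genes tested were called lower. Slc25a3, the phosphate carrier, was at 331, 342 and 369 CPM in saline and 199, 166 and 168 CPM in microbead retinas (log2 fold change -0.97, adjusted p = 0.0143 from edgeR). Vdac1, the main outer membrane channel, was at 551, 585 and 777 CPM in saline and 376, 343 and 336 CPM in microbead retinas (-0.86, adjusted p = 0.0233 from edgeR). The groups did not overlap for either gene. Slc25a5 was also lower without overlap (-0.62, adjusted p = 0.0603 from edgeR), while Slc25a4, Vdac2 and Vdac3 overlapped, with log2 fold changes of -0.12, 0.27 and -0.53, and the median of the 6 was -0.58. Of 18 genes of the tricarboxylic acid cycle and pyruvate dehydrogenase, Idh3g, a regulatory subunit of isocitrate dehydrogenase, was called, higher (0.82, adjusted p = 0.0293 from edgeR), and Suclg2 had the largest fold change (-1.09, adjusted p = 0.0584 from edgeR). The median of the 18 was -0.10. Of 14 regulators of oxidative phosphorylation genes, Tfb2m, a mitochondrial transcription factor, rose (0.73, adjusted p = 0.0370 from edgeR) and Yy1, a transcription factor with many targets beyond mitochondria, fell (-0.78, adjusted p = 0.0188 from edgeR).

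Processed pseudogenes that share stretches with the members were also counted. Among the 53 copies listed, 15 were tested, of which 1 was called higher and 2 lower. Among all genes tested, these calls made up 6.46% and 6.31%. Of the 15 copies, 12 had a log2 fold change below 0, and the median was -1.01. Saline counts alone could carry a copy past the filter on low counts, so that no direction is read from these values. Gm13772, called lower, was counted at 20, 28 and 23 in saline and at 1, 0 and 1 in microbead libraries. For 2 of the 15, no microbead count exceeded 3. The summed level of the copies listed was 13.6 to 20.3 CPM in saline and 11.2 to 14.2 CPM in microbead retinas, which is small beside the members. Across the 44 members, Spearman's rho of the log2 fold change was -0.21 with transcript length, 0.03 with GC content, -0.10 with mean CPM and 0.11 with the share of 31-base stretches found at other loci. These values describe 44 genes measured in the same 6 libraries. Markers of other cell types moved beside the members: 4 of 10 Müller glia markers and 5 of 13 markers of endothelium and pericytes were called lower, 1 of 10 cone markers (Arr3) higher and 1 of 16 rod markers (Nrl) lower, and none of the 14 ganglion cell, 10 pigment epithelium, 5 red blood cell or 2 tested lens markers passed the threshold with edgeR. The summed ganglion cell markers were at 508, 1295 and 1645 CPM in saline and 1559, 1150 and 1392 CPM in microbead retinas. With saline replicate 1 this low, the lack of calls does not show that ganglion cell markers were unchanged. The part of all these markers in the levels of the members was not tested.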
